A study of Glycine max with 6 samples.

Results

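A set of 200 soybean genes that were expressed in young leaves, most of them at a moderate level, and nearly silent in old ones was described from leaf RNA-seq counts. Genes were kept when each of the 3 libraries of 20 days after germination (DAG) held at least 20 raw counts and each of the 3 libraries of 80 DAG held at most 3. Of 56044 gene models in the count table, 22742 had 20 counts in each 20 DAG library, and 401 of these had at most 3 counts in each 80 DAG library, which was 1.76% of them. The 401 genes were ranked by their mean CPM at 20 DAG (counts divided by the library total and multiplied by 1000000), and the first 200 are the members. The members were thus chosen by the counts of both ages, and the difference between the ages is given as a description with no test.

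The leaves came from wild-type plants of the cultivar BR16 grown in pots of soil in a greenhouse, with 3 biological replicates at each age. The young group was at vegetative stage V3 (20 DAG) and the old group at reproductive stage R7 (80 DAG), although the sample labels call both ages vegetative. Disks were cut from the middle leaflet of the third and the seventh trifoliate leaf, and the study's methods do not say which leaf was taken at which stage. Age, stage and possibly leaf position changed together, and their parts in a difference cannot be told apart. In whole leaf disks, fewer cells of a type and less RNA per cell cannot be told apart either.

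Library totals ran from 10758425 to 15883253 counts. A single gene model outside the 200 took 18.7% to 27.4% of a library, so CPM also depends on how much of the library such genes fill. A scale that allows for this is CPM of the effective library size by edgeR's TMM factors (TMM-scaled CPM below). TMM-scaled CPM is used mainly where the young libraries are compared with each other, and the edgeR test uses the same factors. The at-least folds and the pooled ratios between the ages were computed from library totals. These folds and ratios thus do not allow for the part of a library that such genes fill. The sources used here pair no identifier of the 200 genes with a name or a function, and no leaf marker gene could be checked. Members are called by their identifiers, which give the chromosome and the order of the genes along it.

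A young soybean leaf is still building cell walls, membranes, cuticle and chloroplasts, whereas a leaf at R7 is in natural senescence, in which chloroplasts are dismantled and nitrogen is moved to the filling seeds. Ageing leaves switch large groups of genes on and off through transcription factors, among them those of the NAC family. The soybean genome is a duplicated one, and many of its genes have near copies elsewhere in the genome or in tandem, side by side on a chromosome.

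None of the 180 GmNAC genes, the family for which the study was made, was among the 200 members (0 of 180), and 1 of 180 was among the 401 genes that passed the count rule. Over all 56044 gene models the shares were 0.357% and 0.716%, so that counts this low are near the share of all genes and nothing particular to the family is read from them. GmNAC048 (Glyma.07G050600), related to the Arabidopsis NST factors of secondary wall thickening, passed the count rule with 26, 22 and 24 counts in replicates 1, 2 and 3 of 20 DAG and none in any 80 DAG library, but its level placed it at rank 393 of 401. GmNAC038 (Glyma.06G154400) missed the rule by a single count, with 19, 647 and 257 counts in the young libraries and 1, 0 and 3 in the old ones.

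The members held 44052, 60351 and 48571 counts in replicates 1, 2 and 3 of 20 DAG, and 182, 147 and 128 counts in replicates 1, 2 and 3 of 80 DAG. They thus took 0.362%, 0.507% and 0.451% of the young libraries and 0.00115%, 0.00113% and 0.00104% of the old ones. In the old libraries, 106, 92 and 78 of the 200 members had at least 1 count. No member had any count in an old library beyond 3, as the rule requires, and 58 of the 200 (29.0%) had none in all 3 old libraries. The summed old count was at most 3 for 151 members, and 3 members had 3 counts in every old library.

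The mean level at 20 DAG ran from 5.36 CPM to 507 CPM with a median of 11.5 CPM, and the middle of the distribution lay between 7.84 and 18.4 CPM (quartiles). Levels of 100 CPM or more were reached by 5 members, 50 CPM or more by 15, and 20 CPM or more by 44. The set was dominated by few genes, since the first member alone made up 11.5% of the summed mean CPM, the first 3 made up 21.5% and the first 25 made up 52.2%. Among all genes with 20 counts in each young library, the median member stood at percentile 55.6 of level, so that most members were moderately and not highly expressed in the young leaf. The share of such genes that passed the count rule was 0.668% of the 749 genes at 100 CPM or more, 0.959% of the 1043 genes from 50 to 100 CPM, 0.734% of the 3951 genes from 20 to 50 CPM, 1.30% of the 5607 genes from 10 to 20 CPM, 1.54% of the 6110 genes from 5 to 10 CPM and 3.56% of the 5220 genes from 2 to 5 CPM. The share was thus higher below 20 CPM than above, without a steady order among the 3 upper classes. A limit of 3 counts asks for a smaller fold of a gene of low level than of a gene of high level.

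At the edge of the ranking, the next to last member, Glyma.14G062300, had 50, 59 and 77 counts at 20 DAG and 5.41 CPM on average, and the last, Glyma.10G137200, had 95, 50 and 44 counts and 5.36 CPM. Just outside, Glyma.03G139900 had 66, 55 and 65 counts and 5.36 CPM, and Glyma.13G112500 had 142, 20 and 28 counts and 5.31 CPM. The ranking thus has no gap at 200. The limit on the old libraries has none either, as 327 genes had at most 2 counts in each old library, 401 had at most 3 and 487 had at most 4.

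The member of highest level was Glyma.07G014500 on chromosome 7, with 4796, 8423 and 4515 counts in replicates 1, 2 and 3 of 20 DAG and 0 in every old library. Its mean was 507 ± 174 CPM (SD, n = 3) at 20 DAG. Set against a floor of 3 counts over the pooled old libraries (0.0727 CPM), it was at least 6998-fold higher at 20 DAG. The floor and the intervals of ratios given here cover counting error only.

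Glyma.20G204500 on chromosome 20 followed with 460, 6589 and 1487 counts in the young libraries and 3, 2 and 1 counts in the old ones. Its mean of 243 ± 274 CPM (SD, n = 3) rested mostly on replicate 2. The pooled ratio of 20 to 80 DAG was 1684, with an exact 95% interval (Clopper-Pearson) of 773 to 4590. Glyma.20G158500, also on chromosome 20, had 410, 4147 and 2252 counts in the young libraries and 3, 1 and 1 counts in the old ones, or 197 ± 158 CPM (SD, n = 3) at 20 DAG. In both genes replicate 1 was the lowest young library by a wide margin, although it was still above every old library.

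The other members above 100 CPM were on chromosomes 8 and 13, and their young libraries lay closer together. Glyma.08G312000 had 1192, 1174 and 2011 counts in the young libraries and 2, 1 and 1 in the old ones (128 ± 51.2 CPM at 20 DAG, SD, n = 3). Glyma.13G304500 had 1044, 1583 and 1641 counts at 20 DAG and a single count, in replicate 1, at 80 DAG (124 ± 34.4 CPM at 20 DAG, SD, n = 3). The pooled ratio of Glyma.13G304500 was 5052, but with 1 old count its exact 95% interval reached from 906 to 199605.

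**Figure D1:**
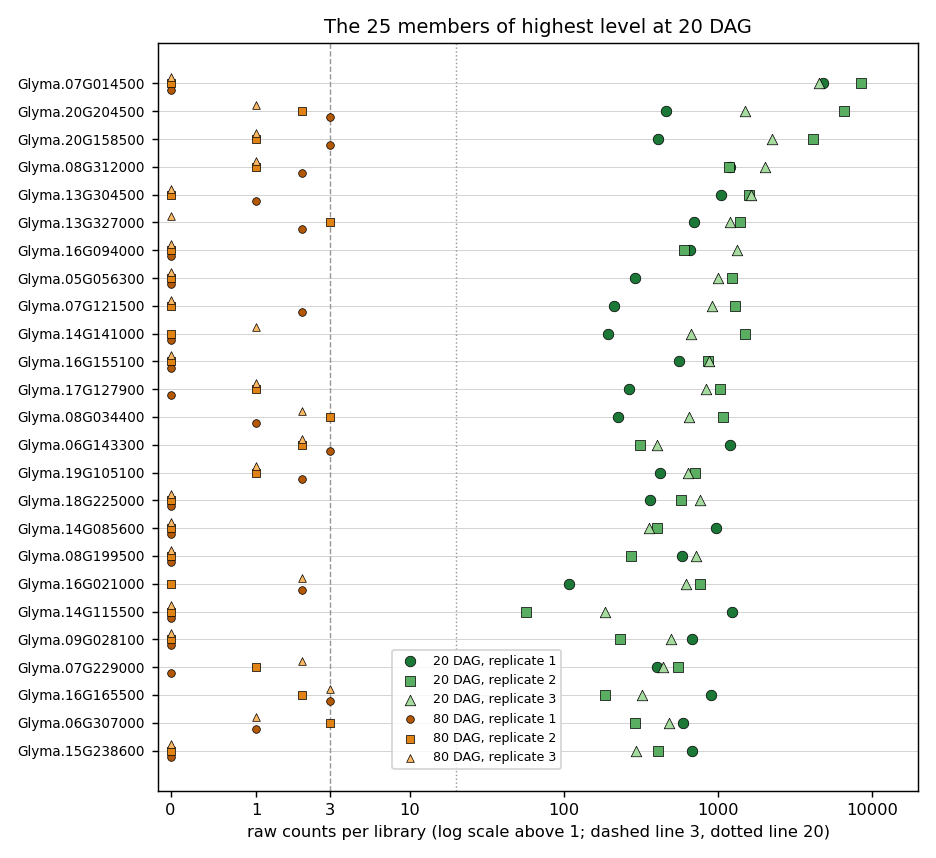
Raw counts per library (horizontal axis, log scale above 1) of the 25 members of highest mean CPM at 20 DAG, from the highest at the top. Green symbols are the 3 libraries of 20 DAG and orange symbols the 3 libraries of 80 DAG. The young libraries hold 57 counts or more in each of the 25 genes and the old libraries 3 or fewer, and the young libraries of one gene often lie far apart.

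Of the 25 members of highest level, 10 had no count in any old library. Over all 58 members without an old count, the young level was at least 73.4-fold to at least 6998-fold higher, with a median bound of 162. For the 142 members with 1 to 9 counts in the old libraries together, the pooled ratio of 20 to 80 DAG ran from 29.2 to 5052 with a median of 177. The bounds are proportional to the young level, and the ratios also depend on the few old counts.

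The edgeR quasi-likelihood test with Benjamini-Hochberg adjustment, fitted over 30058 genes, called 26.0% of the tested genes lower at 80 DAG, and 29.8% of those with 20 counts in each young library. All 200 members passed its expression filter, through the 20 DAG libraries in which they are high, and all 200 were called lower. That count follows from the rule that chose them.

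The same count rule turned round, with at most 3 counts in each 20 DAG library and at least 20 in each 80 DAG library, was met by 152 of 23973 genes (0.634%), against the 401 of 22742 genes (1.76%) silent at 80 DAG. By library total, each old library was larger than any young one (smallest old total 12353418 counts, largest young total 12184798). By totals, the limit of 3 counts, 0.189 to 0.243 CPM in the old libraries, was thus stricter there, and 20 counts were easier to reach. By effective library size this order does not hold throughout, as replicate 2 of 80 DAG (12152530) was smaller than replicate 2 of 20 DAG (12849491). The part of depth in these numbers was not tested.

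The young libraries lay further apart in the members than in other genes, which is given as a description, since the rule used the same libraries. On the TMM scale, the highest young library of a member was a median 2.12-fold above the lowest (quartiles 1.54 and 3.85, n = 200), against a median of 1.39-fold for the 16566 other genes of the same range of level. The ratio was over 2-fold in 110 members (55.0%) and in 16.1% of those other genes, and over 5-fold in 30 members (15%) and 1.29% of the others. The 401 genes before ranking had a median ratio of 1.86. With CPM of the library total, the medians were 2.03 for the members and 1.51 for the other genes of that range.

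Summed over the 200 members, the young libraries were nearly level on the TMM scale, with 4690, 4697 and 4848 CPM in replicates 1, 2 and 3. Single members were not. In 31 members replicate 1 was over 2-fold below both other young libraries (15.5%), and in 36 it was over 2-fold above both (18%). Among the other genes of that range of level, these shares were 3.63% and 2.53%. With CPM of the library total, the numbers of members were 37 and 25 (18.5% and 12.5%), against 6.49% and 0.803% of those other genes.

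Replicate 2 was the lowest young library in 116 members, replicate 1 in 65 and replicate 3 in 19 on the TMM scale (58%, 32.5% and 9.5%). Among the other genes of that range of level the shares were 40.9%, 36.8% and 22.3%. With CPM of the library total, which puts replicate 1 lower for most genes, replicate 1 was lowest in 100 members, replicate 2 in 76 and replicate 3 in 24 (50%, 38% and 12%). The shares of the other genes were then 65.9%, 17.9% and 16.1%. On both scales replicate 2 was lowest in a larger share of members than of the other genes, and replicates 1 and 3 in a smaller one. Across the 200 genes, which are not independent replicates, log2 CPM of replicate 1 had a Pearson r of 0.32 with replicate 2 and of 0.54 with replicate 3, and replicates 2 and 3 had an r of 0.88. For the 401 genes before ranking the values were 0.61, 0.75 and 0.91, so that those of the members also depend on the cut by mean level. For the 16566 other genes of that range of level they were 0.83, 0.91 and 0.95. All these points share the same 3 libraries.

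**Figure D2:**
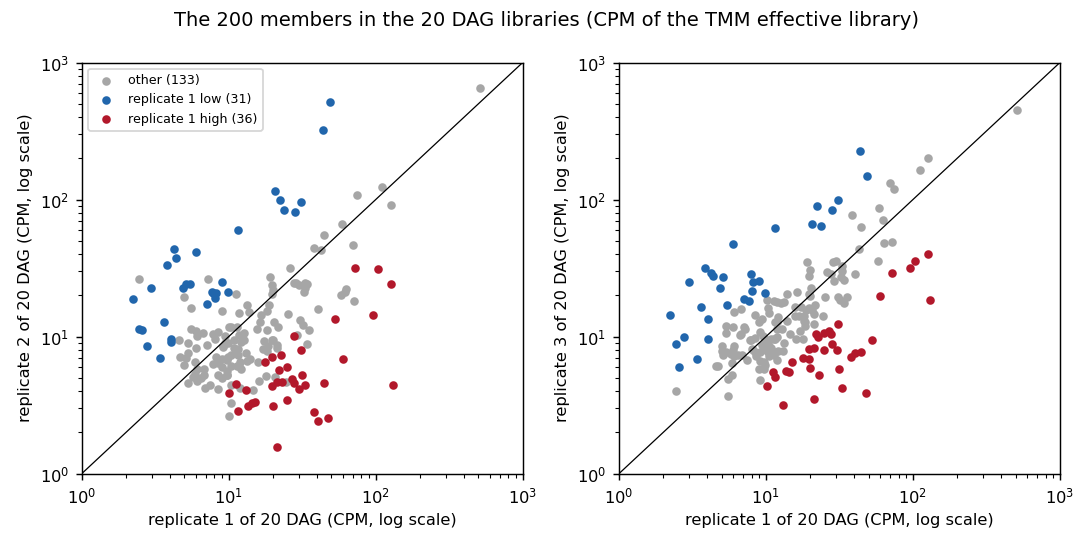
Level of the 200 members in replicate 1 of 20 DAG (horizontal axes) against replicate 2 (left) and replicate 3 (right), in CPM of the TMM effective library on log axes, with the line of equal level. Blue points are the 31 members over 2-fold lower in replicate 1 than in both others, red points the 36 members over 2-fold higher, and grey points the other 133.

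Among the 25 members of highest level, 8 were over 2-fold lower in replicate 1 than in replicates 2 and 3, Glyma.20G204500 and Glyma.20G158500 included. Glyma.05G056300 had 290, 1238 and 995 counts in the young libraries and none in the old ones. Glyma.07G121500 had 210, 1280 and 907 counts, and only replicate 1 of 80 DAG held any (2 counts). Glyma.14G141000 had 193, 1494 and 664 counts in the young libraries and 0, 0 and 1 in the old ones. By raw counts, replicate 2 was the highest young library of these genes and replicate 3 stood between.

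Glyma.17G127900 had 265, 1036 and 836 counts in the young libraries and 0, 1 and 1 in the old ones. Glyma.08G034400 had 224, 1078 and 647 counts in the young libraries and 1, 3 and 2 in the old ones. Glyma.16G021000 had 108, 765 and 619 counts in the young libraries and 2, 0 and 2 in the old ones. All of them kept a wide distance between the lowest young and the highest old library. Of the 31 members with this pattern, 9 (29.0%) had no old count, and their median levels were 5.96, 22.8 and 25.2 TMM-scaled CPM in replicates 1, 2 and 3.

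The opposite pattern was seen in 5 of the 25. Glyma.14G115500 had the widest spread of all 200 members, with 1225, 57 and 185 counts in the young libraries and none in the old ones. Its mean of 40.8 ± 52.1 CPM (SD, n = 3) was smaller than its SD, and the highest young library was 21.0-fold above the lowest in CPM of the library total and 29.4-fold on the TMM scale. Glyma.06G143300 had 1192, 312 and 401 counts in the young libraries and 3, 2 and 2 in the old ones. Glyma.14G085600 had 970, 400 and 356 counts in the young libraries and none in the old ones. Chromosome 14 thus held members of both patterns.

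Glyma.16G165500 had 897, 185 and 319 counts in the young libraries and 3, 2 and 3 in the old ones, and Glyma.15G238600 had 676, 410 and 292 counts in the young libraries and none in the old ones. Of the 36 members high in replicate 1, 18 (50%) had no count in the old libraries. The share was 23.3% of the 133 members with neither pattern. Median levels of the 36 were 26.0, 4.59 and 7.84 TMM-scaled CPM in replicates 1, 2 and 3. On that scale replicate 3 was above replicate 2 in 32 of the 36. It was so too in 107 of the 133 members with neither pattern, and in 15 of the 31 low in replicate 1.

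The other 12 of the 25 showed neither pattern. Glyma.13G327000 had 701, 1389 and 1194 counts in the young libraries and 2, 3 and 0 in the old ones. Glyma.16G094000 had 656, 600 and 1326 counts, Glyma.16G155100 had 555, 857 and 870, Glyma.18G225000 had 360, 571 and 768, Glyma.08G199500 had 585, 274 and 715, and Glyma.09G028100 had 674, 232 and 491, all with none at 80 DAG. Their highest young library was 1.47-fold (Glyma.16G155100) to 3.97-fold (Glyma.09G028100) above the lowest on the TMM scale.

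Glyma.19G105100 had 417, 708 and 635 counts in the young libraries and 2, 1 and 1 in the old ones. Glyma.06G307000 had 593, 287 and 483 counts in the young libraries and 1, 3 and 1 in the old ones. Glyma.07G229000 had 401, 548 and 438 counts in the young libraries and 0, 1 and 2 in the old ones. On the TMM scale the young libraries of Glyma.07G229000 were within 1.03-fold of each other, with 43.0 ± 0.608 CPM (SD, n = 3).

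In CPM of the library total, the smallest spreads among the 200 were those of Glyma.01G127400 (109, 104 and 97 counts, 8.90 ± 0.144 CPM), Glyma.10G015900 (102, 106 and 96 counts, 8.73 ± 0.314 CPM) and Glyma.20G033900 (319, 313 and 260 counts, 25.5 ± 1.20 CPM), each SD over n = 3 libraries of 20 DAG. The TMM scale put the highest young library of these genes 1.43-fold, 1.32-fold and 1.39-fold above the lowest, so that the order of the least variable members depends on the scale. At the other end, Glyma.10G214500 joined Glyma.14G115500 and Glyma.20G204500 with 23, 338 and 40 counts, of which replicate 2 held most.

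Members were found on all 20 chromosomes, and none on the unplaced scaffolds. Chromosome 14 held the most, 16 members. They were 1.85% of its 865 genes with 20 counts in each young library (exact 95% interval 1.06 to 2.99). Over all 22742 such genes the share was 0.879%. Chromosome 10 followed with 15 members (1.20%), and chromosomes 6 and 13 with 13 each (0.985% and 0.821%). Chromosome 5 held the fewest, 3 members or 0.273% of 1099 genes (0.0563 to 0.796). The intervals of the other 18 chromosomes included the share of 0.879%. The 20 intervals count each gene as independent, neighbouring pairs included, and were not adjusted for their number.

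By summed level the order was different. The 9 members of chromosome 7 added up to 687 CPM, of which Glyma.07G014500 made up 507 CPM, and the 11 members of chromosome 20 added up to 560 CPM, mostly from Glyma.20G204500 and Glyma.20G158500. The 16 members of chromosome 14 added up to 340 CPM. Before ranking, chromosome 14 had 22 of the 401 genes (2.54% of its expressed genes, against 1.76% over all), and chromosome 20 had 12, of which 11 were members.

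**Figure D3:**
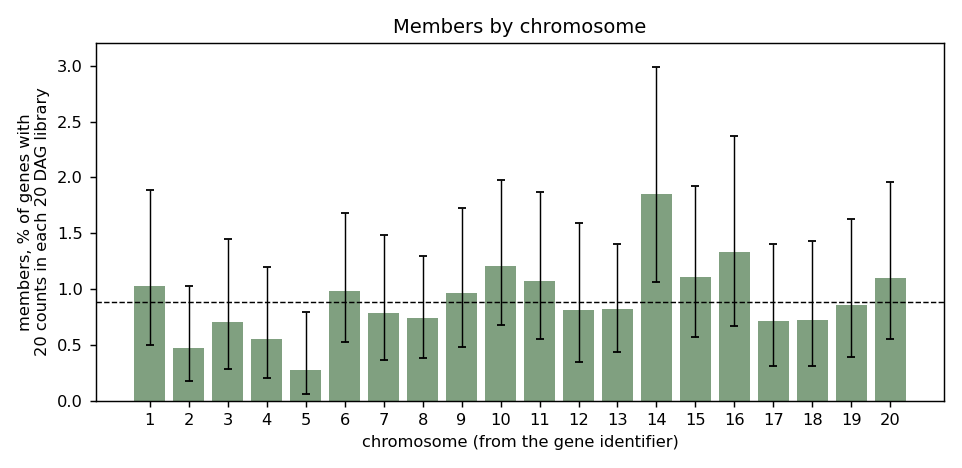
Members as a percentage of the genes with at least 20 counts in each 20 DAG library, by chromosome. Bars are the observed shares, error bars the exact 95% binomial intervals and the dashed line the share over all such genes, 0.879%. Chromosome 14 is highest at 1.85% and chromosome 5 lowest at 0.273%.

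Few members lay next to each other. Within 5 positions in the order of the identifiers, 18 of the 200 members (9.0%) had another member, and they formed 9 pairs and no larger run. Being near is mutual, so that the 18 genes are 9 independent cases at most and no interval is given for the share. Of the other genes with 20 counts in each young library, 3.49% of 22542 had a member within the same distance. Directly adjacent members made up 4.0% (8 of 200), against 0.696% of those other genes, and within 10 positions the shares were 12% and 6.70%. Most members, 182 of 200 at 5 positions, thus stood alone.

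**Figure D4:**
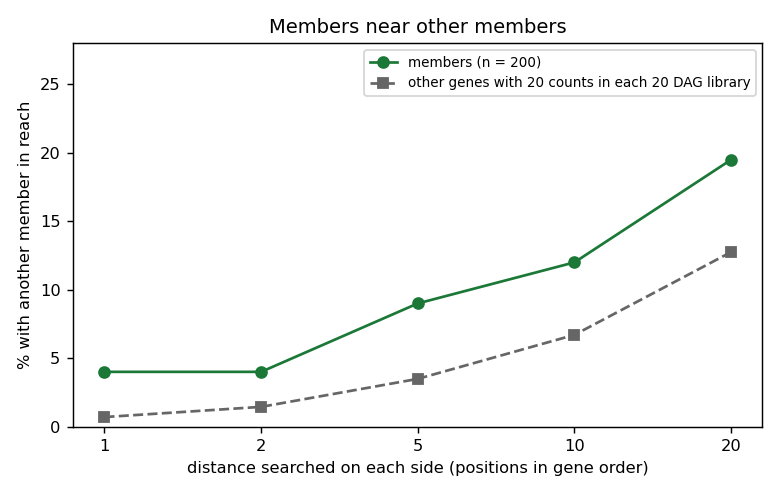
Share of genes with another member within a given number of positions on each side in gene order (horizontal axis, 1 to 20 positions). Green points are the 200 members, and grey squares are the other genes with at least 20 counts in each 20 DAG library. The members lie above the other genes at each distance, at 9.0% against 3.49% for 5 positions.

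Of the 9 pairs, 4 were direct neighbours. Glyma.11G098400 had 357, 36 and 71 counts at 20 DAG and its neighbour Glyma.11G098500 had 378, 31 and 76, with 2 counts and 1 count at 80 DAG, all in replicate 2. Both were among the members high in replicate 1, and their mean levels were within 1.05-fold of each other. Reads of near-identical copies can be split between them by the counting, which is not described in the sources used here, so that the values of neighbours this alike are uncertain.

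Glyma.06G307000 and Glyma.06G307100 differed 3.86-fold in mean CPM, the latter with 184, 92 and 82 counts at 20 DAG. Glyma.10G137300, beside Glyma.10G137200, had 301, 157 and 184 counts in the young libraries and a single count in the old ones. Glyma.13G242500 had 111, 131 and 113 counts and Glyma.13G242600 had 170, 198 and 131 at 20 DAG. The young libraries stood in the same order on the TMM scale in 5 of the 9 pairs, 3 of the 4 adjacent pairs among them. On that scale replicate 1 was highest in 50% of all 200 members and replicate 2 lowest in 58%. Members that are not neighbours can thus share an order too. How often they do was not computed, and nothing about neighbours is read from the 5 pairs.

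The remaining pairs were 3 to 5 positions apart. Glyma.11G166500 (98, 57 and 72 counts at 20 DAG) and Glyma.11G166900 (85, 64 and 66) were of like level, as were Glyma.14G220200 (332, 143 and 195) and Glyma.14G220700 (379, 204 and 285). Glyma.12G195900 (237, 188 and 195) was 1 of the 3 members with 3 counts in every old library, and Glyma.12G196200 (260, 318 and 288) had 0, 2 and 2 there. Levels within a pair were furthest apart, 22-fold, in Glyma.13G304200 (70, 57 and 68) and Glyma.13G304500. Glyma.15G238200 (24, 143 and 60) was low in replicate 1 whereas its partner Glyma.15G238600 was high there.

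Among all 401 genes that passed the count rule, 46 (11.5%) had another within 5 positions, against 6.80% of the other genes with 20 counts in each young library. The longest run had 4 genes and lay around the fourth-ranked member, Glyma.08G312000. The others of this run, Glyma.08G311600 (49, 32 and 42 counts at 20 DAG), Glyma.08G311900 (42, 23 and 41) and Glyma.08G312200 (28, 25 and 28), were all below the level of the first 200.

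The genes beside the members were not used by the rule, and those that had not passed it themselves could be tested. There were 387 such genes directly next to a member. Of those tested by edgeR's quasi-likelihood test, 76 were lower at 80 DAG (37.6%) and 34 were higher (16.8%), against 25% lower and 23.4% higher among all 29657 tested genes that had not passed the rule. Their median log2 fold change of 80 against 20 DAG was −0.41, against −0.00060 for all such genes. Within 5 positions 30.2% were lower, and within 10 positions 28.4%. These shares are a description with no test of their difference. Whether the counting used strand is not stated in the sources used here, so that reads of overlapping or antisense neighbours may be shared with a member.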

How the data were processed

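Leaf RNA of 6 libraries was sequenced after rRNA depletion with a stranded kit. The authors deposited raw counts per gene model of Wm82.a2.v1, 1 column per library, without normalization; all columns were mapped by sample title and 0 were left unmapped. The submitters' processing notes list CASAVA 1.7, Bowtie2 and DESeq2. The counting program is not given in the sources used here. Replicates of an age differed by a chi-square per degree of freedom of 7.71 to 49.9.

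CPM was computed from the column sum. TMM factors and the quasi-likelihood test came from edgeR 4.0.16 (R 4.3.3, default expression filter, Benjamini-Hochberg adjusted p under 0.05), with DESeq2 1.42.0 and limma-voom (limma 3.58.1) as alternatives. The test was tried first on simulated counts with a single dispersion for all genes and few changed genes. That setting is simpler than these data, so the trial does not measure how the test performs on them. With 3 libraries against 3, p-values measure the spread between these samples only. Positions are places in the order of the identifiers. Python 3.11.15, pandas 2.3.3, numpy 2.4.6, scipy 1.17.1 and matplotlib 3.10.9 were used.

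The members, lists and tests were chosen with earlier results of these data known. Genes named were the first 25 by level, the 3 most and the 3 least variable, the genes on both sides of the limit of the ranking, members in pairs, and GmNAC genes that passed. The pairs tie in size, so all 9 were named. Genes of the run on chromosome 8 and GmNAC038 were named after their values were seen. Gene lists by description, cell type markers, promoter motifs and sequences were not used, since no table used here annotates these identifiers. GmNAC names come from the study's gene inventory.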

Additional observations from a re-analysis of the deposited data

How the results depend on the processing

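The number of genes that passed the count rule, 401, depended on both limits. It was 113 with no count allowed in any old library, 884 with at most 10, 736 with at least 10 counts in each young library and 166 with at least 50. With each library left out in turn it was 435 to 502. That number cannot fall below 401, since fewer libraries then have to meet the limits. Of the 200 members, 196 were kept on the TMM scale or with DESeq2 size factors, 177 when ranked by the lowest young library, and 167 to 192 with 1 library left out. The share of members with another within reach was 4.0% at 2 positions in place of 9.0% at 5, and 6.0% to 9.0% with 1 library left out, an alternative chosen after seeing the data, as were the scales tried for the spread of the young libraries. Over all genes, edgeR called 7812 lower and 6946 higher at 80 DAG. The higher count was 4048 at an adjusted p under 0.01, and library size alone in place of TMM shifted the median of the fitted log2 fold changes from −0.015 to 0.21 and the calls to 6063 lower and 7221 higher. With the replicate number as a block, the calls were 6452 lower and 5250 higher. The main fit does not treat libraries with the same number as pairs. Deviations of such libraries from the mean of their age had correlations of −0.24, −0.33 and 0.082. With so few libraries per age, these values cannot show whether the numbers pair the libraries. With 1 library left out, 6522 to 7933 genes were lower and 5075 to 6884 higher. The share of tested genes lower at 80 DAG directly beside members exceeded that of all other genes by 9.72 to 13 percentage points over 14 alternatives, and was 31.2% against 20.4% with the replicate block. In the old libraries the depth limits what can be said of levels under the floor of 0.0727 CPM.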

Other observations

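The 152 genes with the reverse pattern, at most 3 counts in each 20 DAG library and at least 20 in each 80 DAG library, were also found near each other. Another of the 152 lay within 5 positions for 6.58% of them and within 10 positions for 15.8%. Of the 55438 other gene models placed on chromosomes, 2.60% and 5.04% had one of the 152 that near. The shares were 2.57% and 5.07% of the genes with 20 counts in each young library, a group that excludes the 152 by the rule. Shares among genes with 20 counts in each old library were not computed. No test of these shares was made.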
